A study of Mus musculus with 12 samples.

Results

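Proerythroblasts (Pro) are the first recognizable erythroid precursors of the bone marrow, and they mature through basophilic (Baso), polychromatic (Poly) and orthochromatic (Ortho) erythroblasts before they lose the nucleus. During this maturation the cells become smaller, fill with hemoglobin and stop transcribing many genes. Among 29838 genes measured in sorted cells of these stages, 7 were picked because their RNA was much lower after Pro: Sec14l2, Aldh1a7, C1qtnf12, Stard10, Hpn, Sh2d4a and Gm8225. The decreases from Pro were the reason for the choice, so they are described here without a test, and only the steps between the later stages were tested. Hpn was picked on Baso against Pro, Sh2d4a and Gm8225 on Baso and Poly against Pro, Aldh1a7 and C1qtnf12 on Poly and Ortho against Pro, and Sec14l2 and Stard10 on Ortho against Pro. The test of a later step therefore shares the libraries of the stage on which a gene was picked.

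The cells came from the bone marrow of wild-type male C57BL/6 mice aged 8 weeks and received no treatment. After CD45-positive cells had been depleted, Pro cells were sorted as CD44 high and Ter119 low, and Baso, Poly and Ortho cells were separated among Ter119-positive cells by CD44 and forward scatter. Each stage had 3 RNA-seq libraries, 12 in all, and replicates 2 and 3 of Ortho are called only erythroblasts in their cell type label and were placed by their titles. Levels are FPKM, fragments scaled to the length of the transcript and to the mapped fragments of its library, so they can be compared between genes. The labels do not say that libraries came from separate mice, so the tests measure the spread between libraries only, and 3 libraries against 3 cannot go below p = 0.1 in an exact permutation test.

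The genes belong to unrelated families. Sec14l2 binds tocopherol and other lipids and promotes a step of cholesterol synthesis. Stard10 carries phosphatidylcholine and phosphatidylethanolamine between membranes. Aldh1a7 is a cytosolic aldehyde dehydrogenase and C1qtnf12, also called adipolin, is a secreted relative of adiponectin. Hpn (hepsin) is a serine protease anchored in the plasma membrane and best known from hepatocytes, where it is abundant. Sh2d4a is a cytoplasmic adaptor with an SH2 domain, and Gm8225 is annotated as a processed pseudogene.

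The level of all 7 genes was lower in every Baso library than in every Pro library. The sum of the 7 genes lay between 660 and 842 FPKM in Pro, 144 and 202 FPKM in Baso, 58.7 and 72.4 FPKM in Poly and 33.1 and 40.9 FPKM in Ortho. The background of this comparison was large: 44.2% of the 12994 genes with enough signal for a test were lower in every Baso than in every Pro library, and nothing is read from the count of 7, which the choice set. The share of FPKM taken by hemoglobin transcripts rose at the same time, from 6.98% to 10.7% in Pro to between 33.2% and 36.7% in Baso, 34.8% and 37.6% in Poly and 47.2% and 52.6% in Ortho. The libraries summed to between 505624 and 526044 FPKM in Pro and between 655594 and 691033 FPKM in Ortho, and the depth behind the values is unknown. The median log2 fold change of all tested genes was −0.42 in Ortho against Pro, and it ranged from −0.72 with all libraries scaled to the same sum to −0.03 when hemoglobin genes were removed. In sorted cell pools, fewer cells that express a gene and less of its RNA in each cell cannot be told apart.

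**Figure D1:**
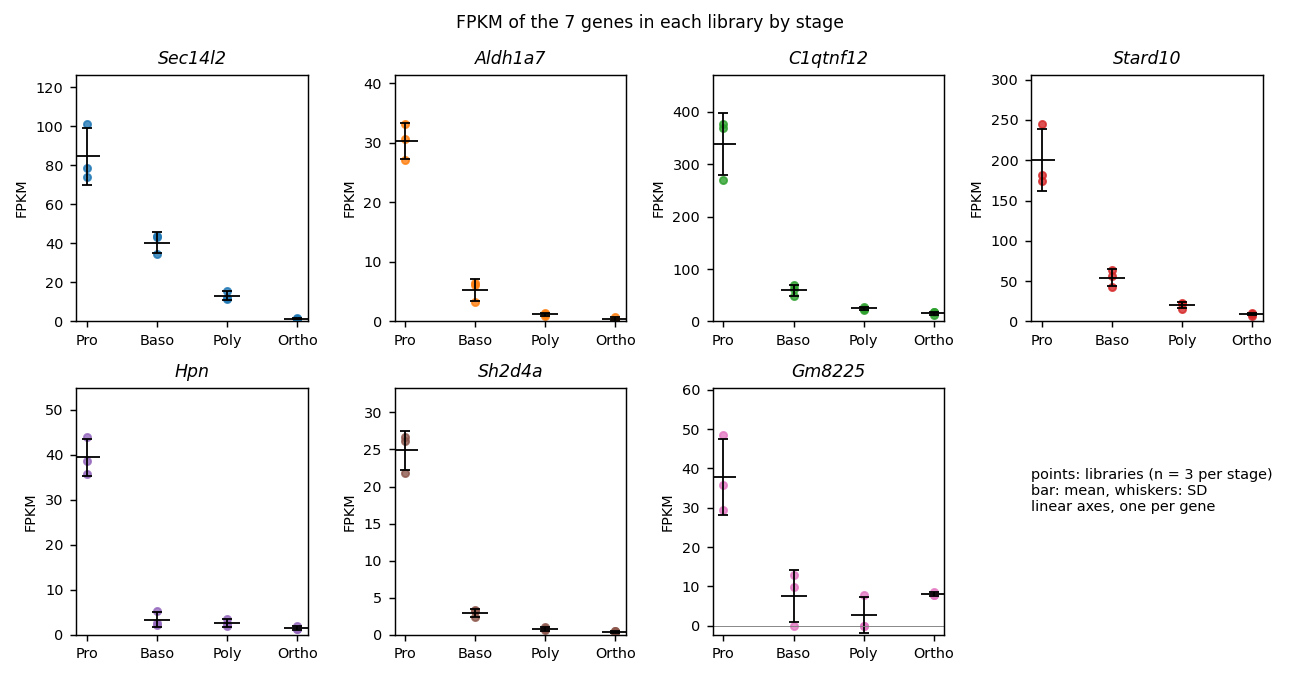
FPKM (y axis, linear, a separate scale for each gene) of the 7 genes in Pro, Baso, Poly and Ortho (x axis). Points are the 3 libraries of a stage, horizontal bars the mean and whiskers the SD. Every Pro point lies above every later point, and Gm8225 has points at 0 in Baso and Poly but not in Ortho.

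The lipid-binding protein gene Sec14l2 (ENSMUSG00000003585, chr11:4097039-4123415 on mm10, minus strand, up to 12 exons) kept more of its Pro mean in Baso than the others. Its FPKM was 73.8, 101 and 78.8 in the Pro libraries and 34.3, 43.6 and 43.1 in the Baso libraries. It was 11.4, 12.2 and 15.7 in Poly and 1.27, 1.23 and 1.59 in Ortho. The stages did not overlap at any step, with means of 84.6 ± 14.6 (Pro), 40.3 ± 5.22 (Baso), 13.1 ± 2.27 (Poly) and 1.36 ± 0.195 (Ortho) FPKM (SD, n = 3 each). In Baso 47.7% of the Pro mean was left and in Ortho 1.61%, a 62.0-fold lower mean. The step from Poly to Ortho held 54.8% of its decrease on the log2 scale, against 17.9% for the step from Pro to Baso. Sec14l2 was picked on Ortho against Pro, so nothing is read from this late fall.

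The lipid transfer protein gene Stard10 (ENSMUSG00000030688, chr7:101317086-101346626, plus strand, up to 8 exons) was among the most abundant transcripts of Pro. Its FPKM was 245, 174 and 182 in Pro and 42.9, 55.9 and 63.7 in Baso. It was 21.6, 23.2 and 16.0 in Poly and 9.46, 7.39 and 11.0 in Ortho. No stages overlapped, but the Ortho mean of 9.27 ± 1.79 FPKM (SD, n = 3) was still above the mean of 56.7% of the tested genes in Ortho. The Ortho mean was 4.63% of the Pro mean, and the 3 steps held 42.6%, 32.0% and 25.5% of the decrease on the log2 scale.

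The aldehyde dehydrogenase gene Aldh1a7 (ENSMUSG00000024747, chr19:20692953-20727562, minus strand, 13 exons) fell close to the lower end of the measured range. Its FPKM was 33.2, 27.0 and 30.7 in Pro and 3.19, 6.19 and 6.45 in Baso. It was 0.930, 1.48 and 1.26 in Poly and 0.200, 0.306 and 0.757 in Ortho. All 3 Ortho libraries were under 1 FPKM, and the Ortho mean of 0.421 ± 0.296 FPKM (SD, n = 3) was 71.9-fold lower than the Pro mean of 30.3 ± 3.09. Only 1.73% of the tested genes had a lower mean in Ortho.

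The adipolin gene C1qtnf12 (ENSMUSG00000023571, chr4:155962318-155966629, plus strand, up to 8 exons) had the highest level of the 7 in Pro. Its FPKM was 377, 270.3 and 369 in Pro and 49.0, 61.1 and 69.8 in Baso. It was 21.9, 24.3 and 28.5 in Poly and 12.8, 17.9 and 17.3 in Ortho. The stages did not overlap, and the fall slowed with maturation, with 56.7% of the decrease on the log2 scale before Baso, 28.8% between Baso and Poly and 14.5% between Poly and Ortho. The Ortho mean of 16.0 ± 2.79 FPKM (SD, n = 3) exceeded that of 72.2% of the tested genes, so neither C1qtnf12 nor Stard10 can be called shut off in Ortho.

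The hepsin gene Hpn (ENSMUSG00000001249, chr7:31098725-31115290, minus strand, up to 14 exons) showed the sharpest first step. Its FPKM was 38.7, 35.7 and 43.9 in Pro and 2.20, 5.22 and 2.72 in Baso. It was 2.31, 3.59 and 2.03 in Poly and 1.31, 2.03 and 1.34 in Ortho. Only 8.58% of the Pro mean was left in Baso, and that first step held 76.1% of the decrease on the log2 scale. Hpn was picked on this step, so nothing is read from its size. The Baso, Poly and Ortho libraries overlapped from stage to stage, and replicate 2 was the highest of the 3 libraries in each of these stages.

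The adaptor gene Sh2d4a (ENSMUSG00000053886, chr8:68276567-68347699, plus strand, up to 9 exons) fell early and went on falling. Its FPKM was 26.1, 21.9 and 26.6 in Pro and 2.37, 3.24 and 3.31 in Baso. It was 0.576, 0.739 and 1.06 in Poly and 0.193, 0.512 and 0.443 in Ortho. No stages overlapped, and all 3 Ortho and 2 of the 3 Poly libraries were under 1 FPKM. The Ortho mean of 0.382 ± 0.168 FPKM (SD, n = 3) was 65.1-fold lower than the Pro mean of 24.9 ± 2.61.

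**Figure D2:**
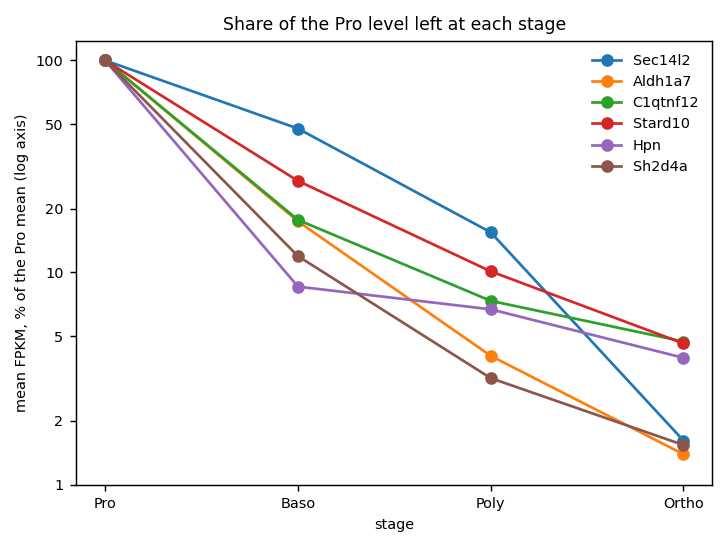
Mean FPKM of 6 genes at each stage (x axis) as a percentage of their own Pro mean (y axis, log scale). Lines join the means of 3 libraries. Hpn drops to 8.58% in Baso and then flattens, whereas Sec14l2 stays at 47.7% in Baso and reaches 1.61% in Ortho. Hpn was picked on Baso and Sec14l2 on Ortho against Pro, so nothing is read from this contrast. Gm8225 is left out because some of its libraries are listed at 0.

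Between Baso and Poly, 5 of the 7 genes passed the test, and all 5 were lower in Poly. Sec14l2 fell by 1.56 on the log2(FPKM + 1) scale (SE 0.15, limma adjusted p = 0.000209), and Aldh1a7 fell by 1.46 (SE 0.22, adjusted p = 0.00311). Stard10 fell by 1.37 (SE 0.19) and C1qtnf12 by 1.23 (SE 0.17), both with a limma adjusted p of 0.00242, and Sh2d4a fell by 1.15 (SE 0.15, adjusted p = 0.00140). These are the 5 genes whose Poly libraries all lay below all Baso libraries. Over all 12994 tested genes 5.77% passed the test as lower in Poly, 15.9% had no overlap in that direction, and the median log2 change was 0.03. Aldh1a7, C1qtnf12, Sh2d4a and Gm8225 were picked on Poly against Pro, so nothing is read from the count of 5. Hpn, at −0.23 (SE 0.23, limma adjusted p = 0.557), and Gm8225, at −1.36 (SE 0.96, adjusted p = 0.381), did not pass. Without Baso replicate 2, the highest Baso library of Hpn, the Hpn change was 0.05 (limma adjusted p = 0.899).

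Between Poly and Ortho, 4 of the 7 genes passed the test as lower in Ortho. Sec14l2 fell by 2.57 on the log2 scale (SE 0.15, limma adjusted p = 1.71e-07) and Stard10 by 1.05 (SE 0.19, adjusted p = 0.00139). Aldh1a7 fell by 0.66 (SE 0.22, limma adjusted p = 0.0443) and C1qtnf12 by 0.61 (SE 0.17, adjusted p = 0.0208). In this step 21.7% of all tested genes passed as lower, 31.3% had no overlap in that direction, and the median log2 change was −0.08. The Sec14l2 step was the largest fall of the 7 genes, whose other changes lay between −1.05 and 2.13. Sec14l2 was picked on Ortho against Pro, which shares the Ortho libraries with this step. Some other members were picked on earlier stages, so nothing is read from this difference in size or from the count of 4. Sh2d4a, at −0.37 (limma adjusted p = 0.0922), Hpn, at −0.50 (adjusted p = 0.159), and Gm8225, at 2.13 (adjusted p = 0.141), did not pass. When only the later stages were fitted with a replicate block, 6 genes passed, with Hpn at a limma adjusted p of 0.0251 and Sh2d4a at 0.0388.

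The calls of Aldh1a7 and C1qtnf12 in this last step were lost under several settings. With no library left out, the limma adjusted p of Aldh1a7 was 0.135 without the filter on low values, 0.0557 without hemoglobin genes and 0.110 with median centring, and that of C1qtnf12 was 0.0769, 0.0700 and 0.0768. With the libraries left out in turn, the log2 change stayed between −0.82 and −0.55 for Aldh1a7 and between −0.70 and −0.47 for C1qtnf12. The limma adjusted p of Aldh1a7 was 0.139 without Poly replicate 2, 0.107 without Poly replicate 3, 0.150 without Ortho replicate 1 and 0.124 without Ortho replicate 2. It lay at 0.0523, 0.0533 and 0.0590 without Pro replicate 1, 2 or 3. The adjusted p of C1qtnf12 from limma was 0.0506 without Poly replicate 2, 0.0861 without Poly replicate 3 and 0.0881 without Ortho replicate 1. The count of genes that passed was then 2 without Poly replicate 2, Poly replicate 3 or Ortho replicate 1. Both genes were lower in every Ortho than in every Poly library, as were 31.3% of all tested genes. They were picked on Poly and Ortho against Pro, so nothing is read from this.

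Over both later steps together, from Baso to Ortho, 6 of the 7 genes were lower at an adjusted p under 0.05 in limma, as were 28.8% of the tested genes. Each of the 7 was picked on Baso or Ortho against Pro, so nothing is read from this count. The log2 change was −4.12 for Sec14l2, −2.42 for Stard10, −2.12 for Aldh1a7, −1.84 for C1qtnf12, −1.52 for Sh2d4a and −0.73 for Hpn. The limma adjusted p of Hpn was 0.0250, and it was 0.0899 without Baso replicate 2, 0.0780 without Ortho replicate 1, 0.0739 without Ortho replicate 3 and 0.0843 without the filter on low values. Gm8225 stood at 0.77 (limma adjusted p = 0.542).

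**Figure D3:**
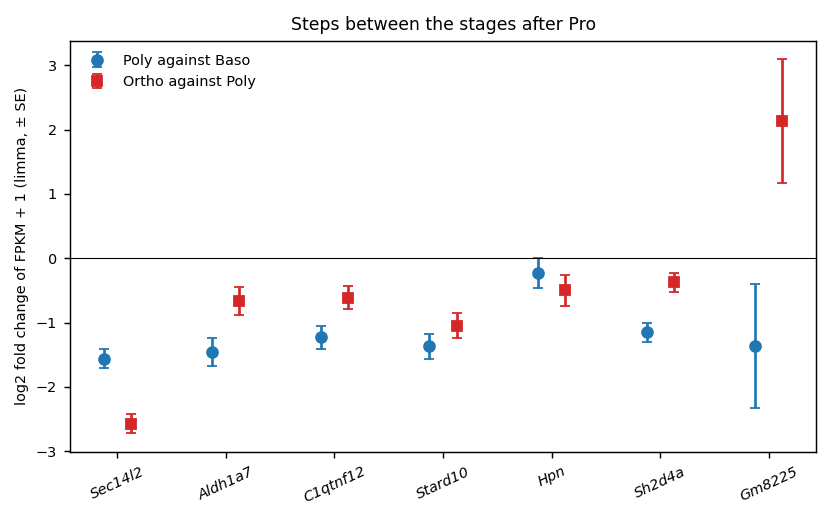
Log2 fold change of FPKM + 1 (y axis, estimate ± SE from limma, 12 libraries) for the 7 genes (x axis) from Baso to Poly (circles) and from Poly to Ortho (squares). Sec14l2 has its larger step between Poly and Ortho (−2.57), and the wide whiskers of Gm8225 come with libraries listed at 0.

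Aldh1a7 lies 49487 bases from Aldh1a1, the cytosolic dehydrogenase that makes retinoic acid from retinal, and the transcripts of both genes are much alike. Over 2011 aligned bases 90.3% were identical, the longest identical run was 100 bases, and 13.8% of the 31-base words of Aldh1a7 also occur in Aldh1a1 and in no other gene. The stretch below shows how an identical run gives way to differences. It covers bases 862 to 951 of the Aldh1a7 transcript and 1165 to 1254 of the Aldh1a1 transcript, both coding, in GENCODE M21 on mm10, and capitals mark the 8 bases that differ.
Aldh1a7: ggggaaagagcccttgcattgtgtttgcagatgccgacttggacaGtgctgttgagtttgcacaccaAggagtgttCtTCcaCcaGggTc
Aldh1a1: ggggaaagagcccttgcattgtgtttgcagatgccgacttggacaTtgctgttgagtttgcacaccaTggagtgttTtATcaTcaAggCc
Fragments from identical stretches could be counted for either gene, so the level of Aldh1a7 is uncertain to that extent. Aldh1a1 was at 127, 124 and 116 FPKM in Pro and at 83.9, 93.7 and 102 FPKM in Baso. It was at 50.6, 51.2 and 52.8 FPKM in Poly and at 70.2, 74.1 and 75.8 FPKM in Ortho. The last step went the opposite way in the neighbours: Aldh1a1 was higher in Ortho than in Poly by 0.50 on the log2 scale (limma adjusted p = 0.000387; 0.32 to 0.65 under other scalings), while Aldh1a7 was lower by 0.66. In Ortho 60.0% of the Pro mean of Aldh1a1 was left, and 1.39% of that of Aldh1a7.

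Gm8225 (ENSMUSG00000068604, chr17:26542760-26543715, plus strand, 2 exons) is a near copy of Rps2, which encodes a protein of the small ribosomal subunit. Over 879 aligned bases, the whole annotated transcript, 94.2% were identical to the Rps2 transcript, with an unbroken run of 227 bases. Of its 31-base words 35.3% occur in Rps2 as well, and it shared words with 92 other genes in all, among them the Rps2 pseudogenes Rps2-ps10 and Rps2-ps6. The 90 bases below, at positions 551 to 640 of Gm8225 and 576 to 665 of Rps2, where they are coding, are the same in both transcripts.
Gm8225: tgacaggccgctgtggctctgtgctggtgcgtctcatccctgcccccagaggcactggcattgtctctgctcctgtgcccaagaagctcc
A read from such a stretch cannot be assigned to the pseudogene or to the ribosomal protein gene by its sequence.

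The FPKM of Gm8225 was 48.4, 29.3 and 35.8 in Pro. It was 9.80, 0 and 12.8 in Baso, 0, 0 and 7.88 in Poly and 7.82, 7.86 and 8.51 in Ortho. In 3 of the 12 libraries, 1 of Baso and 2 of Poly, the gene is thus listed at 0, while every Ortho library is above 0 at much the same value. In the 9 libraries above 0, its FPKM was between 1.76% and 2.68% of that of Rps2, with 1.86%, 1.97% and 2.02% in the Ortho libraries. Rps2 itself was at 1808, 1486 and 1818 FPKM in Pro, 556, 649 and 583 FPKM in Baso, 401, 382 and 413 FPKM in Poly and 422, 399.6 and 421 FPKM in Ortho. The related pseudogene Rps2-ps10 was above 0 in every library, with means of 75.5 ± 20.4 (Pro), 22.8 ± 2.37 (Baso), 15.4 ± 1.33 (Poly) and 15.9 ± 1.01 (Ortho) FPKM (SD, n = 3 each). The fitted changes of Gm8225 depend on the constant added before the logarithm: Ortho against Poly ranged from 0.93 with 5 to 4.24 with 0.1. Leaving out Poly replicate 3, the only Poly library above 0, gave 3.18 (limma adjusted p = 0.0210), and the step also passed without Baso replicate 2, at 2.13 (adjusted p = 0.0406). The other members share little sequence with other genes: at most 0.331% of the 31-base words of Sh2d4a occur in any one gene, and those of Sec14l2, C1qtnf12, Stard10 and Hpn occur in none.

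**Figure D4:**
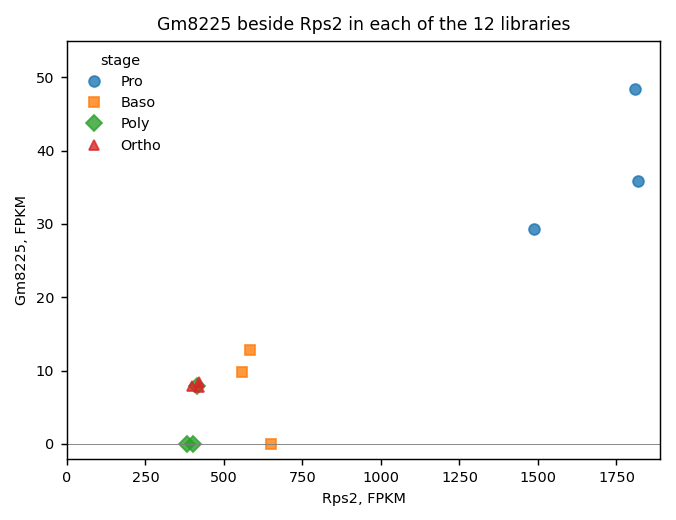
FPKM of Gm8225 (y axis) against FPKM of Rps2 (x axis), 1 point for each of the 12 libraries, with a symbol for each stage. Both are highest in Pro, and 1 Baso and 2 Poly libraries lie at 0 for Gm8225 although Rps2 is at 382 to 649 FPKM there.

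The promoters of 4 of the genes were found in RefSeq. They are shown to give the sequence upstream of these genes, and nothing is read from them about the timing of the decreases. They are on GRCm38.p6, read along the strand of the gene, and trimmed to the bases outside annotated exons. Capitals mark the motifs found by letter search on both strands. Searched were AGATAA (a form of the core bound by GATA factors), CCACCC (bound by Klf factors), CCCGCC (a GC box form), TATAAA and CCAAT. Sec14l2 is shown at chr11:4118832-4118979, upstream of the RefSeq start. This stretch lies inside the annotated gene, whose GENCODE start on the minus strand is at 4123415. Aldh1a7 is shown at chr19:20727563-20727806, Stard10 at chr7:101316836-101317085 and Hpn at chr7:31115327-31115576. Another RefSeq window of Hpn, chr7:31110998-31111247, lies wholly in annotated exons and is not shown. It held none of the motifs.
Sec14l2: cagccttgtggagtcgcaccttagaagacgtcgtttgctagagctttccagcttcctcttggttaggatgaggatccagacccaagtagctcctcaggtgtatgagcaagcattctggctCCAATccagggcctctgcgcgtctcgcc
Aldh1a7: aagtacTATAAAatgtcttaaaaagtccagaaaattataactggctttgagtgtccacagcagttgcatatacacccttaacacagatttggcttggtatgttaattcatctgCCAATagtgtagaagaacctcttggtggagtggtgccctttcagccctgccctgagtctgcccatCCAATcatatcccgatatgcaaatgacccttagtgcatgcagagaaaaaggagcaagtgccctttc
Stard10: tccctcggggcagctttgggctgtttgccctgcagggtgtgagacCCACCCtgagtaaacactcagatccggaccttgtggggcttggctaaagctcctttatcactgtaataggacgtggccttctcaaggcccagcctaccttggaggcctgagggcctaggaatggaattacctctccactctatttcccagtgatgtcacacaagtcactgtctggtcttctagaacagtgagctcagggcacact
Hpn: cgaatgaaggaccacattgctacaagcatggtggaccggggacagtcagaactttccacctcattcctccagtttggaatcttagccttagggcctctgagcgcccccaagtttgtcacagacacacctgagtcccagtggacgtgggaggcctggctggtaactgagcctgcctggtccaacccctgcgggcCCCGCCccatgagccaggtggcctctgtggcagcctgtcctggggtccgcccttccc
The letters CCAAT occur once in Sec14l2 and at 2 places in Aldh1a7, which also holds TATAAA, whereas Stard10 holds CCACCC and Hpn holds CCCGCC. No searched motif was shared by all 4 stretches, and AGATAA was in none of them. Other forms of the GATA core, such as TGATAA, were not searched, so no absence of GATA matches can be read from this. The GC box form CCGCCC was not searched either, and it stands unmarked near the end of the Hpn stretch. Among the 32851 RefSeq windows of mouse promoters, 9.99% held AGATAA, 28.1% CCACCC, 32.5% CCCGCC, 12.4% TATAAA and 33.8% CCAAT. These windows are longer than the trimmed stretches of Sec14l2 (148 bases) and Aldh1a7 (244 bases), and the 102 bases trimmed from Sec14l2 hold CCCGCC as well. A match is a run of letters and not a known binding site. C1qtnf12, Sh2d4a and Gm8225 are not shown.

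Most relatives of the genes were not called lower after Pro. Of 83 listed relatives and partners, 68 were in the table and 35 were tested. In Ortho 5 of the 35 were at least 2-fold lower than in Pro at an adjusted p under 0.05 in limma, against 23.8% of all tested genes, and 4 were at least 2-fold higher, against 6.33%. Their median log2 change was 0.24, against −0.42 for all tested genes. Under other settings the lower count ran from 2 to 9 and the higher count from 0 to 11, and without hemoglobin genes 1153 of all tested genes were lower and 1991 higher. In Baso 1 was lower (8.54% of all tested genes) and none was higher (1.82%), and in Poly 5 were lower (12.8%) and 2 higher (3.59%).

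By family, 3 of 13 aldehyde dehydrogenases were lower in Ortho and 1 was higher. Aldh18a1, which makes a precursor of proline and ornithine, went from 40.1 ± 4.35 FPKM in Pro to 7.14 ± 0.118 in Ortho (SD, n = 3; log2 change −2.33, limma adjusted p = 8.50e-08). Aldh7a1 (−1.10, limma adjusted p = 0.000623) and Aldh3b2 (−1.14, adjusted p = 0.000459) were lower, from Pro means of 5.39 and 4.65 FPKM, and the mitochondrial Aldh1b1 was higher (1.05, adjusted p = 1.17e-06). C1qtnf4, the only tested relative of C1qtnf12, was lower at a low level (2.24 ± 0.141 FPKM in Pro, 0.0334 ± 0.0578 in Ortho, log2 change −1.65, limma adjusted p = 6.68e-07). Of 9 other START domain genes, the phosphatidylcholine carrier Stard7 was lower (−1.48, limma adjusted p = 1.43e-05) and Stard5 higher (1.05, adjusted p = 4.33e-05). These directions held under every scaling tried, but the 2-fold size did not for Aldh7a1, Aldh3b2, Aldh1b1 and Stard5, which came to −0.70, −0.74, 0.75 and 0.74 at their smallest.

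None of the 3 tested relatives of Sec14l2, the 2 of Hpn or the 4 of Sh2d4a was called in Ortho with the deposited scaling. Sec14l1 stood at 16.8 ± 0.591 FPKM in Pro and 16.8 ± 0.999 FPKM in Ortho (SD, n = 3 each), with a log2 change between −0.35 and 0.46 depending on the scaling. The membrane protease St14 (matriptase) went from 1.98 ± 0.399 to 3.39 ± 0.563 FPKM and the adaptor Sh2d3c from 12.8 ± 1.45 to 23.3 ± 2.33 FPKM (log2 change 0.47 to 1.28 over the scalings, so past 2-fold under some). Of the partners of hepsin, its substrate Hgf (hepatocyte growth factor) was higher in Ortho (log2 change 1.32, limma adjusted p = 3.26e-05), as was the Hgf receptor Met (1.17, adjusted p = 7.92e-06). Over the scalings Hgf ranged from 1.05 to 1.72 and Met from 0.86 to 1.56, so Met fell short of 2-fold under some. The inhibitor Spint2 stood at 19.4 ± 2.08 FPKM in Pro and 17.9 ± 0.202 in Ortho, and Spint1 was at or near 0 in all stages.

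**Figure D5:**
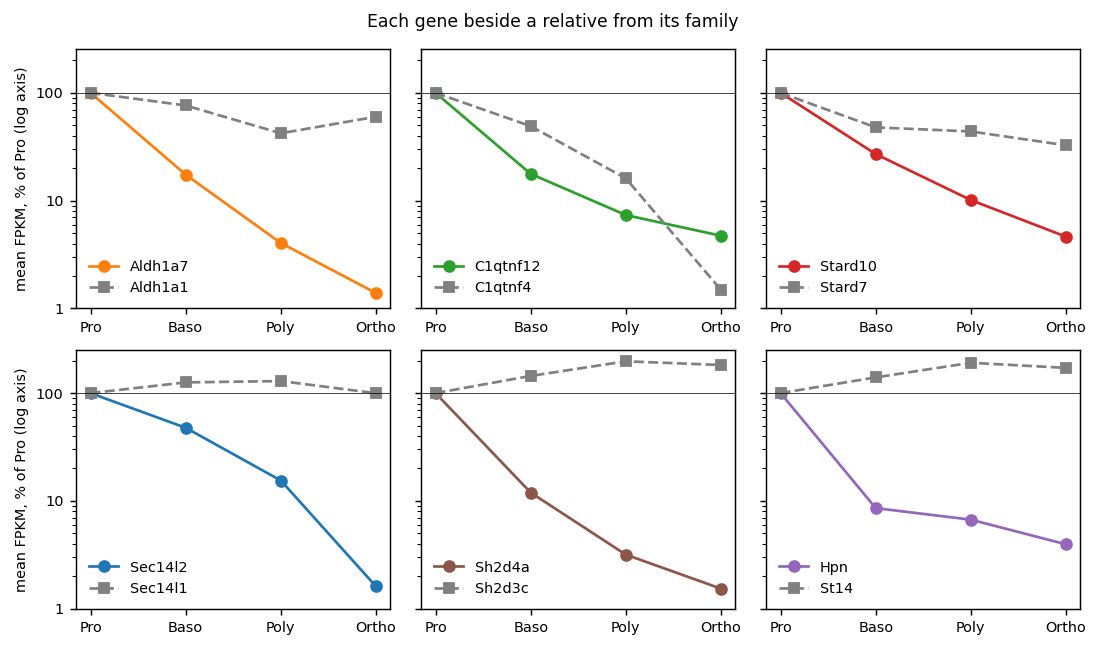
Mean FPKM at each stage (x axis) as a percentage of the own Pro mean (y axis, log scale) of 6 genes (circles, solid lines) and a relative of each (squares, dashed lines), chosen after the values were seen. In Ortho C1qtnf4 stands at 1.49% of Pro, Stard7 at 32.6%, Aldh1a1 at 60.0%, and Sec14l1, Sh2d3c and St14 at 99.8%, 182% and 171%.

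Among the genes beside the 7 on the chromosome, 14 of 28 were tested. In Ortho 3 were at least 2-fold lower than in Pro (23.8% of all tested genes) and 2 at least 2-fold higher (6.33%), a share of lower genes near that background, and the lower count ran from 1 to 5 under other settings. Their median log2 change was 0.07, against −0.42 for all tested genes. On the log2(FPKM + 1) scale the largest decrease was that of Mtfp1, a mitochondrial fission gene that lies 1593 bases from Sec14l2 on the same strand. Mtfp1 stood at 35.2, 24.0 and 24.9 FPKM in Pro, 7.36, 9.24 and 8.98 in Baso, 4.46, 5.17 and 4.83 in Poly and 2.36, 2.39 and 2.49 in Ortho. It fell at every step without overlap, with a log2 change of −3.07 from Pro to Ortho (limma adjusted p = 8.83e-09; −3.38 to −2.64 under other scalings). Its mean went from 28.0 FPKM in Pro to 8.52 FPKM in Baso, the step at which Sec14l2 kept 47.7%.

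Gm11955, a processed pseudogene inside Sec14l2 on the opposite strand, was also lower (2.74 ± 0.912 FPKM in Pro, 0.0777 ± 0.0229 in Ortho, SD, n = 3 each). Whether its fragments were told apart from those of Sec14l2 by strand is not given in the sources used here. Ube2j2 beside C1qtnf12 was lower (log2 change −1.04, limma adjusted p = 1.70e-06), with a range of −1.39 to −0.57 under other scalings. Beside Aldh1a7, the guanine deaminase gene Gda was higher (2.60, limma adjusted p = 3.91e-08), as was Zfand5 (1.07, adjusted p = 2.61e-06; 0.70 to 1.55 over the scalings). Dusp1, whose annotated span on the other strand holds Gm8225, was at 68.9 ± 14.3 FPKM in Pro and 70.5 ± 19.8 in Ortho.

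The decreases were compared between genes by the root mean square difference of their log2(FPKM + 1) values over the 12 libraries. Each gene was taken relative to its own Pro mean, so the measure holds the size of a decrease as well as its shape. The members were picked for large decreases, so likeness in size among them follows from the choice. On this scale C1qtnf12 and Sh2d4a were the most alike of the 7, at 0.161, followed by Aldh1a7 and C1qtnf12, at 0.201, and Aldh1a7 and Sh2d4a, at 0.273. The added 1 shrinks the changes of low genes, so these likenesses depend on it. In mean FPKM without it, Ortho was 21.2-fold below Pro for C1qtnf12, 65.1-fold for Sh2d4a and 71.9-fold for Aldh1a7. Sec14l2 was 0.740 from Stard10 and 1.37 from Hpn, and Gm8225 was at least 1.57 from every other member. Outside the 7, Pklr, which encodes the pyruvate kinase of red cells and liver, was nearest to Aldh1a7 (0.300), C1qtnf12 (0.341), Sh2d4a (0.306) and Hpn (0.609). Cited4 and Car1 came next for Aldh1a7, C1qtnf12 and Sh2d4a, and Arhgdig (0.615) and Acsl6 (0.678) for Hpn. Stard10 was nearest to Cited4 (0.278), the carbonic anhydrase gene Car1 (0.400) and the phosphofructokinase gene Pfkm (0.452). Sec14l2 was nearest to Cela1 (0.577), Clcn2 (0.696) and Tac2 (0.735), and Gm8225 to Mt2, Sdsl and Acsl6, at 1.37 or more.

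Pklr had FPKM of 111, 90.1 and 129 in Pro, a mean of 16.0 ± 3.81 in Baso (SD, n = 3), and ended at 2.51, 3.55 and 4.19 in Ortho. As a description of where the choice ended, on the log2(FPKM + 1) scale the change from Pro to Ortho was −4.29 for Stard10 and −4.23 for Sh2d4a, beside −4.65 for Pklr, −4.10 for Cela1 and −4.02 for Tac2, which were not chosen. In Poly it was −3.71 for C1qtnf12 and −3.55 for Col1a1, and in Baso −2.71 for Sh2d4a and −2.65 for Snora61. The order depends on the added constant: Sec14l2 had a larger decrease in Ortho than Aldh1a7 with 1 added (−5.17 and −4.48) and a smaller one with 0.1 (−5.85 and −6.01).

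Markers of maturation and of other cells were read in the same libraries. Calls are for Ortho against Pro, where 6.33% of all tested genes were called higher and 23.8% lower with the deposited scaling, against 2078 higher and 1293 lower genes with median centring. Of 10 late erythroid genes 8 were higher, led by Hba-a1, and none was lower. Of 8 early erythroid genes none was called lower in Ortho and 3 were higher, led by Pim1, and the receptor gene Kit stood at 17.8 ± 3.38 FPKM in Pro and 14.5 ± 2.69 in Ortho (SD, n = 3 each). Baso and Poly were not set apart by the late genes, whose sums overlapped (108130 to 124123 FPKM in Baso and 112413 to 126007 FPKM in Poly), and Hba-a1 differed by 0.01 between them (limma adjusted p = 0.980).

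In 6 lists of other cells no gene was called lower in Ortho, and the number called higher varied from list to list. The summed neutrophil markers, led by S100a9, were at 6953 to 8670 FPKM in Pro and 13636 to 16894 FPKM in Ortho, with 2 of 9 called higher. B cell markers, led by Cd79b (6 of 7 higher), mast cell and basophil markers, led by Prss34 (4 of 5), macrophage markers, led by Cd68 (2 of 4 tested), and stem and progenitor markers, led by Cd34 (1 of 5 tested), also had no gene called lower, and of the 3 tested T and NK cell markers, led by Nkg7, none was called. The macrophage genes C1qa, C1qb, C1qc and Mrc1 and the T and NK cell genes Cd3e, Cd3d, Cd3g and Klrb1c had means under 1 FPKM.

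Of the megakaryocyte markers 4 of 6 were called lower in Ortho (Ppbp, Pf4, Gp9 and Gp1ba), against 23.8% of all tested genes. The means of the 7 genes were also lower in Ortho than in Pro, described without a test. The most abundant marker, Itga2b, went the other way, with a log2 change of 0.39 in Ortho (limma adjusted p = 0.0338). The sum of the list was 70.3 to 129 FPKM in Pro, 47.7 to 109 in Baso, 44.1 to 53.3 in Poly and 38.3 to 47.2 in Ortho. Of the 4 tested endothelial and stromal markers only Col1a1 was lower, and it varied widely within Pro, at 7.58, 91.6 and 20.1 FPKM. The Pro library with the high Col1a1, replicate 2, was the lowest Pro library for Aldh1a7, C1qtnf12, Stard10, Hpn, Sh2d4a and Gm8225 and the highest for Sec14l2. It also had the highest hemoglobin share of the Pro libraries, 10.7% against 7.70% in replicate 1 and 6.98% in replicate 3. A link of either feature to the 7 genes was not tested. Of the hepatocyte markers only Fgb was found in the table, and it was at 0 in all libraries but 1 of Ortho. Whether megakaryocyte or stromal RNA had a part in the levels of the 7 genes was not tested.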

How the data were processed

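RNA was measured in 12 libraries, 3 each of Pro, Baso, Poly and Ortho. The authors removed adaptors and low-quality bases, aligned to mm10 with Hisat2 and counted per gene with FeatureCounts, and the deposited values are FPKM. The labels name Trizol and NEBNext Ultra, whereas the methods name Geek lysis and KAPA Hyper Prep. The annotation release and how reads matching several genes were counted are not given in the sources used here. The depth is unknown, so no counting error is given, and the precision of a value is the spread of 3 libraries.

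Of 29839 lines 1 repeated identifier was removed. limma 3.58.1 in R 4.3.3 was run with a variance trend on log2-transformed FPKM after adding 1, all 12 libraries in one model, for the 12994 genes with at least 1 FPKM in at least 3 libraries. Two-sided p-values were adjusted after Benjamini and Hochberg. A step between later stages passed at an adjusted p under 0.05, and calls against Pro also needed a change of at least 2-fold. Fold changes on this scale understate those of low genes. The model was tested on simulated data. DESeq2, which the authors used on counts, was not run on FPKM. The genes, lists and tests were chosen with earlier results of these data known.

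The named genes were the 7 genes, the 3 tested genes most like each by root mean square difference, the called relatives and neighbours (the 2 nearest genes on each side) in Ortho, the genes next in rank and the most abundant gene of each marker list. A further rule, the relative with the most similar protein, could not be used without protein sequences, and transcripts sharing 31-base words were named instead. Aldh1a1, Rps2, Rps2-ps10, Rps2-ps6, Dusp1, Kit, Spint1, Spint2, St14, Sh2d3c and Sec14l1 were named after their values were seen. Annotation was GENCODE M21, and promoters were from RefSeq on GRCm38.p6. Tables and figures were made with Python 3.11.15.

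Same-numbered libraries of Baso, Poly and Ortho deviated together (correlations of 0.156 to 0.319), which pairs them by their values, with no source named in the labels. With Pro the correlations were 0.00524 to 0.0968. Alternatives tried were pseudocounts of 0.1 and 5, no filter, 3 rescalings, a replicate block and leaving out each library.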

Additional observations from a re-analysis of the deposited data

How the results depend on the processing

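The 5 genes lower in Poly than in Baso were 5 in number under every alternative and every library left out. The 4 genes lower in Ortho than in Poly became 2 without the filter, with hemoglobin genes left out or with median centring. They were 3 with a pseudocount of 5, and 5 with a pseudocount of 0.1 or equal sums, where Sh2d4a also passed. The count was 2 to 4 with a library left out and 6 with the replicate block in the later stages. The replicate block with all 12 libraries changed no call. Single values of the 7 genes between later stages kept direction and side of the threshold in 391 cases, lost the call in 21, gained it in 6 and reversed in 2, both without Baso replicate 2: Hpn in Poly against Baso (0.05, with a range of −0.43 to 0.05 over the libraries left out) and Gm8225 in Ortho against Baso (−0.43, range −0.43 to 1.46). Against Pro every direction of the 7 genes held, but they were picked for decreases from Pro, so nothing is read from this. The sizes moved. The log2 change of Sec14l2 in Baso, −1.04 as deposited, was −0.73 without hemoglobin genes. That of Sh2d4a in Ortho ranged from −5.76 to −2.47 over the alternatives.

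Relatives lower in Baso (1) were 3 with a pseudocount of 0.1 or equal sums, and 1 to 2 with a library left out. Relatives lower in Poly (5) were 2 with a pseudocount of 5 or without hemoglobin genes, 3 with median centring and 4 to 5 with a library left out. Relatives lower in Ortho (5) were 2 with a pseudocount of 5, 9 with equal sums, 3 without hemoglobin genes or with median centring and 4 to 6 with a library left out. Relatives higher in Ortho (4) were 7 with a pseudocount of 0.1, 0 with 5, 1 with equal sums, 8 without hemoglobin genes, 11 with median centring and 3 to 5 with a library left out. Neighbours lower in Ortho (3) were 1 with a pseudocount of 5, 5 with equal sums and 2 to 3 with a library left out.

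Of all calls in Ortho against Pro, 21.0% were higher as deposited, 6.20% with equal sums, 63.3% without hemoglobin genes and 61.6% with median centring. In Baso these shares were 17.6%, 8.76%, 53.7% and 57.5%, and in Poly 21.9%, 10.5%, 64.1% and 56.9%. For Ortho against Poly they were 18.0%, 9.44%, 28.6% and 30.96%. Without counts, the depth that limits the values of Aldh1a7, Sh2d4a and Gm8225 in Poly and Ortho is unknown.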
